A study of Mus musculus with 8 samples.

Results

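GABAergic interneuron identity genes were followed in the cortex of mouse embryos that lack Nuak1, the gene of an AMPK-related kinase that acts in cortical axons. The list holds 9 genes, Gad1, Gad2, Slc32a1, Dlx1, Dlx2, Dlx5, Dlx6os1, Lhx6 and Calb2, which were chosen by their symbols as the genes that make and load GABA or specify and mark inhibitory neurons. Of these, 8 matched 1 row each among the 21165 genes counted, and all 8 passed the filter on low counts that left 12699 genes for testing. Dlx6os1, a long noncoding RNA of the Dlx5 and Dlx6 locus, matched no row by its symbol or by the 8 synonyms searched, and was not analysed here.

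The libraries were bulk poly-A RNA-seq of microdissected whole cortex at E18.5, with 4 embryos of a constitutive Nuak1 KO line and 4 WT embryos. The deletion is present in every cell of the embryo, interneurons included, and KO animals die at birth. For the constitutive allele the study genotypes a LacZ band, and no other allele or treatment is named for either group. In each genotype the labels place 2 embryos in litter A, 1 in litter C and 1 in litter D, and 2 KO embryos and 1 WT embryo are male. The columns of the count table give genotype and replicate only, and replicate numbers name libraries without pairing them. Litter and sex were not entered in any fit, and the sex of a library was not read from its counts.

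Cortical GABAergic interneurons are born outside the cortex, in the ganglionic eminences of the ventral forebrain, and reach the cortical plate by tangential migration late in embryonic life. Homeobox factors of the Dlx family set the GABAergic program in the eminences, and the LIM homeobox factor Lhx6 maintains the cells of the medial eminence that later express somatostatin or parvalbumin. The synthesizing enzymes GAD67 and GAD65, encoded by Gad1 and Gad2, and the vesicular transporter encoded by Slc32a1 then give the neurons their inhibitory transmitter, while the calcium-binding protein calretinin, encoded by Calb2, is found in a later-maturing subset and also in Cajal-Retzius cells. In bulk tissue, fewer interneurons and less of a transcript per interneuron cannot be told apart.

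Total counts ran from 11027082 to 27014858 in the KO libraries and from 9643711 to 18940484 in the WT libraries. Nuak1 itself lay between 11.1 and 20.5 normalized counts in the KO libraries and between 877 and 1445 in the WT libraries, the direction that the labels give. Here, a normalized count is a count scaled to the mean library size after TMM normalization. The cortical glutamatergic markers were all expressed, with summed levels of 23566 to 26306 normalized counts in KO and 17256 to 23033 in WT. KO replicate 1 stood apart in meningeal fibroblast genes, whose summed level was 10885 normalized counts against 531 to 717 in the other KO libraries and 409 to 563 in WT, and the part of this difference in the results was not tested.

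The members lie on 3 chromosomes of the mouse. In NCBIM37, the build named mm9 by the submitters, with the GENCODE annotation, Gad1 spans chr2:70391129-70440071 and Gad2 chr2:22477725-22549394, both on the plus strand. Slc32a1 spans chr2:158436494-158441484 on the plus strand and Lhx6 chr2:35937470-35960928 on the minus strand. Dlx1, at chr2:71366170-71372038 on the plus strand, and Dlx2, at chr2:71381466-71384811 on the minus strand, are neighbours 9427 bases apart and end toward each other. Dlx5 spans chr6:6827805-6832085 on the minus strand, and Calb2 chr8:112661402-112692110 on the minus strand. In this annotation 24.8% of the exon bases of Slc32a1 lie under the antisense transcript Gm14205 and 6.21% of those of Dlx1 under the antisense RNA Dlx1as. The strand setting of the read counting is not given in the sources used here, so reads of these 2 genes and of their antisense partners cannot be told apart.

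Because the list joins transmitter genes to the transcription factors above them, the sequence before the start of 4 of its genes is shown. Each runs over the 250 bases upstream of the annotated start, read 5′ to 3′ on the strand of the gene from RefSeq on GRCm38.p6, with capitals for the E-box core CANNTG, the motif read by basic helix-loop-helix factors. The intervals are chr2:70561879-70562128 for Gad1, chr2:22622077-22622326 for Gad2, chr2:158610508-158610757 for Slc32a1 and chr2:71546755-71547004 for Dlx2.
Gad1: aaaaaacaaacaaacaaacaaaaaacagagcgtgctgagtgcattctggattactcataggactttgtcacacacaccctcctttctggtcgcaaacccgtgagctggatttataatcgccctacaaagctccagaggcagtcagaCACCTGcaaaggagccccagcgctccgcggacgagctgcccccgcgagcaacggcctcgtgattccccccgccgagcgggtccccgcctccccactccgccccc
Gad2: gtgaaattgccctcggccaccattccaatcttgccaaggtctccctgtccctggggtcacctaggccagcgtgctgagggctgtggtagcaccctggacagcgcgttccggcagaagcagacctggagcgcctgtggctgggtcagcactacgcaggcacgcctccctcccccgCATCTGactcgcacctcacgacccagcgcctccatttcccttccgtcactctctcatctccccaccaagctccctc
Slc32a1: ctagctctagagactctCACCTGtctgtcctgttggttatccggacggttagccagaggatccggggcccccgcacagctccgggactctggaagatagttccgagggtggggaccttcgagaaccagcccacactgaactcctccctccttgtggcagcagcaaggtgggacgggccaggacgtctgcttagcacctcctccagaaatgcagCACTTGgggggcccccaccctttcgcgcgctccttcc
Dlx2: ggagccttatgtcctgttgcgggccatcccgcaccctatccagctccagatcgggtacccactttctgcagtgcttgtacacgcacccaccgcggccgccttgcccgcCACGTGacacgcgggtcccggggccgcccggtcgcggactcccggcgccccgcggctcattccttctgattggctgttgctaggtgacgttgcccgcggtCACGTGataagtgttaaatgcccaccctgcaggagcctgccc

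The E-box core was found once in the windows of Gad1 and Gad2, beginning 104 and 76 bases before the start, and at 2 places in each of Slc32a1, 233 and 37 bases before the start, and Dlx2, 142 and 42 bases before it. In Dlx2 both copies read CACGTG. Among the windows not shown, the single window of Dlx1 held no copy of it. Lhx6 had 2 copies in 1 of its windows and none in the others, and Dlx6os1 had 1 copy in 1 of its windows and none in the other. Across all RefSeq windows of this length, 66.2% held at least 1 CANNTG on either strand. The homeodomain core TAATTA, which is its own reverse complement, was in none of the windows of Gad1, Gad2, Slc32a1, Dlx1, Dlx2 or Lhx6, in both windows of Dlx6os1, and in 4.85% of all windows. Windows were at hand for 7 of the 9 members, leaving out Dlx5 and Calb2.

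The first question was whether the genes of GABA synthesis and loading differ in level between KO and WT cortex. All 3 had lower means in KO, by 13.9% for Gad1, 15.9% for Gad2 and 18.0% for Slc32a1 in the fitted fold change, and none passed an adjusted p of 0.05. Gad1, which encodes the enzyme that makes most GABA in the brain, measured 866, 1059.7, 1038 and 1084 normalized counts in KO replicates 1 to 4 and 1091, 1015, 1238 and 1380.0 in WT replicates 1 to 4. In 3 of 4 WT libraries the level was above the highest KO library, whereas WT replicate 2 fell among the KO values. Averaged over 4 libraries, KO stood at 1012 ± 99.1 and WT at 1181 ± 162 (SD, n = 4), and the log2 fold change was -0.22 with a standard error of 0.10 and a 95% interval from -0.44 to 0.0079, and an adjusted p of 0.662 by the quasi-likelihood test of edgeR with Benjamini-Hochberg adjustment.

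Gad2, the enzyme found mainly at nerve terminals, gave 373, 467, 438 and 389 normalized counts in KO and 519, 456, 517 and 490 in WT, in the order of the replicates. Here 3 KO libraries lay below the lowest WT library and 3 WT libraries above the highest KO library, and the groups overlapped only through KO replicate 2 and WT replicate 2. The means were 417 ± 43.4 and 495 ± 29.5, the log2 fold change was -0.25 with a standard error of 0.088 and an interval from -0.44 to -0.056, and the edgeR adjusted p was 0.56 at an unadjusted edgeR p of 0.0164, which ranked the gene 372 of 12699. Its fold change fell just short of the limit of 0.25 that the study sets for size. Leaving out KO replicate 1, the library high in meningeal genes and lowest of all for both Gad1 and Gad2, gave a log2 fold change of -0.20 for Gad2, with an unadjusted edgeR p of 0.0486, and of -0.14 for Gad1.

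Slc32a1 encodes VGAT, which loads GABA and glycine into synaptic vesicles. Its levels were 83.3, 97.3, 91.6 and 73.5 normalized counts in KO and 98.6, 70.1, 120 and 137 in WT. The KO libraries kept within a narrow band, and the WT libraries held both the highest value of the 8, in replicate 4, and the lowest, in replicate 2. With means of 86.4 ± 10.4 and 106.4 ± 28.8 the log2 fold change was -0.29 with a standard error of 0.20, an interval from -0.73 to 0.16 and an edgeR adjusted p of 0.80. This was the member with the fewest reads, 64 to 148 raw counts per library, so counting error alone came to between 8.22% and 12.5% of its value, against 2.44% to 3.85% for Gad1.

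**Figure D1:**
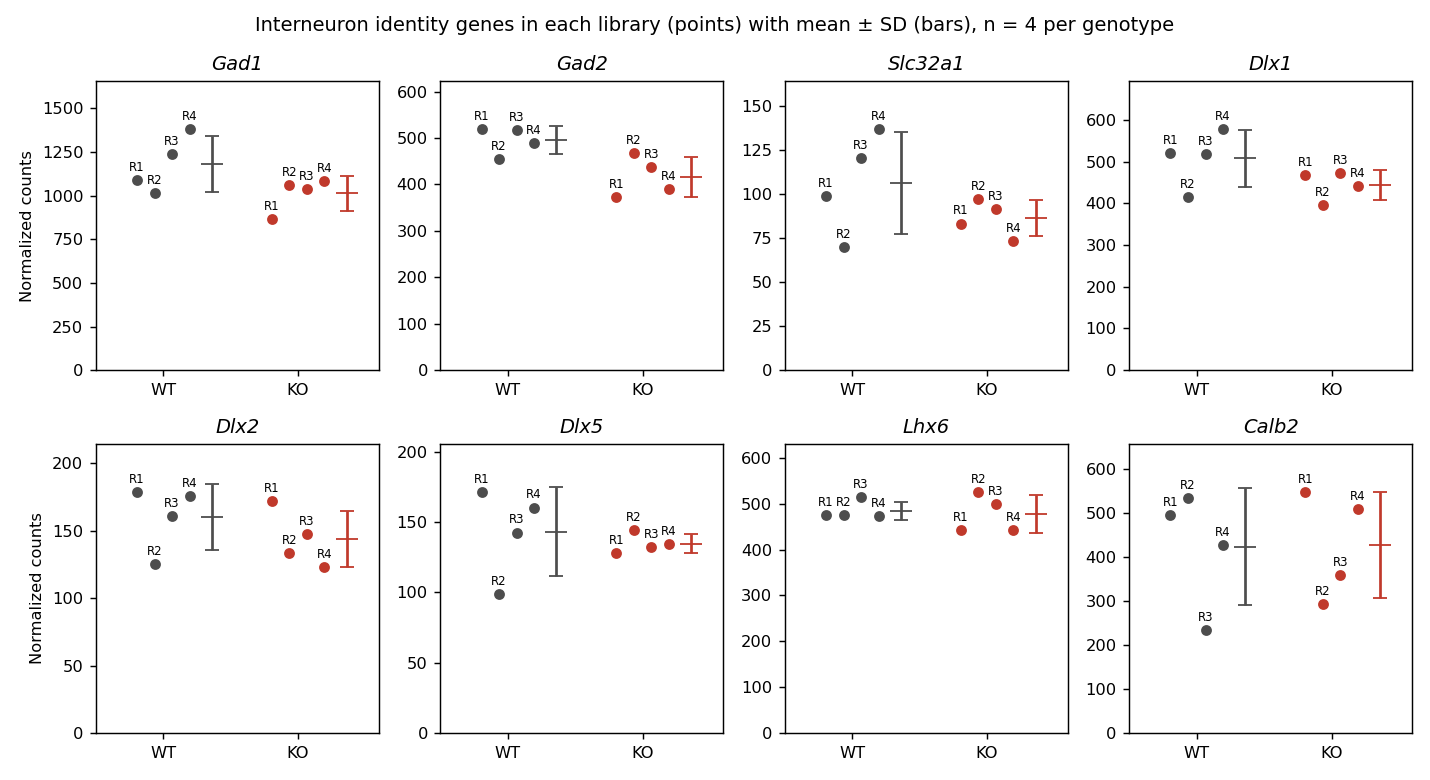
Normalized counts (vertical axis, starting at 0) of the 8 interneuron genes measured, 1 panel a gene, for the 4 KO and 4 WT libraries (points) with the group mean and SD. The KO and WT points overlap in every panel, and Gad2 comes nearest to separating, with 3 KO libraries below its lowest WT library.

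The Dlx homeobox genes were examined next, as the factors that set the GABAergic fate. Their fitted values were lower in KO by log2 differences from -0.18 for Dlx1 to -0.083 for Dlx5, and none passed the test. Dlx1, which keeps interneurons alive and maturing after they reach the cortex, measured 469, 395, 472 and 441 normalized counts in KO and 520, 415, 519 and 578 in WT. Again 3 WT libraries lay above all KO libraries and WT replicate 2 did not. The means were 444 ± 35.6 and 508 ± 68.0, with a log2 fold change of -0.18, a standard error of 0.10, an interval from -0.41 to 0.046 and an edgeR adjusted p of 0.745.

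Dlx2, which acts with Dlx1 in ventral progenitors and is transcribed from the opposite strand of the same locus, gave 172, 134, 147 and 123 normalized counts in KO and 179, 125, 161 and 176 in WT. The lowest WT value, in replicate 2, sat next to the lowest KO value, in replicate 4, and 2 WT libraries were above the highest KO library. Means were 144 ± 20.9 and 160.2 ± 24.5 and the log2 fold change was -0.15 with a standard error of 0.15, an interval from -0.48 to 0.17 and an edgeR adjusted p of 0.855. Dlx5, which lies beside Dlx6 on another chromosome and is expressed in migrating cells, gave 128, 144, 132 and 134 in KO and 172, 99.0, 143 and 160.5 in WT. Its KO libraries spread by only 6.91 (SD) around 134.8 while the WT libraries spread by 31.9 around 143.4, with replicate 2 the lowest of all 8, and the log2 fold change was -0.083 with a standard error of 0.16, an interval from -0.44 to 0.27 and an edgeR adjusted p of 0.939. The KO spread of Dlx5, a coefficient of variation of 5.13%, lay below its counting error of 6.84% to 10.3% in a library.

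Lhx6 and Calb2 mark different interneuron populations, those of the medial ganglionic eminence and a later-maturing calretinin population. No difference in Lhx6 was detected, and its interval was the narrowest of the 8. It measured 443, 526, 500.0 and 444 normalized counts in KO and 475, 476, 514 and 473 in WT, means of 478 ± 41.5 and 484 ± 19.8. The libraries were interleaved, the highest over the lowest came to 1.19, and the log2 fold change was -0.020 with a standard error of 0.079, an interval from -0.19 to 0.15 and an edgeR adjusted p of 0.97. Calb2 varied most from library to library within each genotype, with a coefficient of variation of 28.2% in KO and 31.4% in WT, and its KO values of 548, 293, 360.2 and 509 and WT values of 496, 534.5, 235 and 427 covered the same span. The means were 428 ± 121 and 423 ± 133, and the log2 fold change was 0.010 with a standard error of 0.25. With 4 libraries a group, the interval of Calb2 ran from -0.53 to 0.55, so differences of up to that size in either direction were not excluded.

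**Figure D2:**
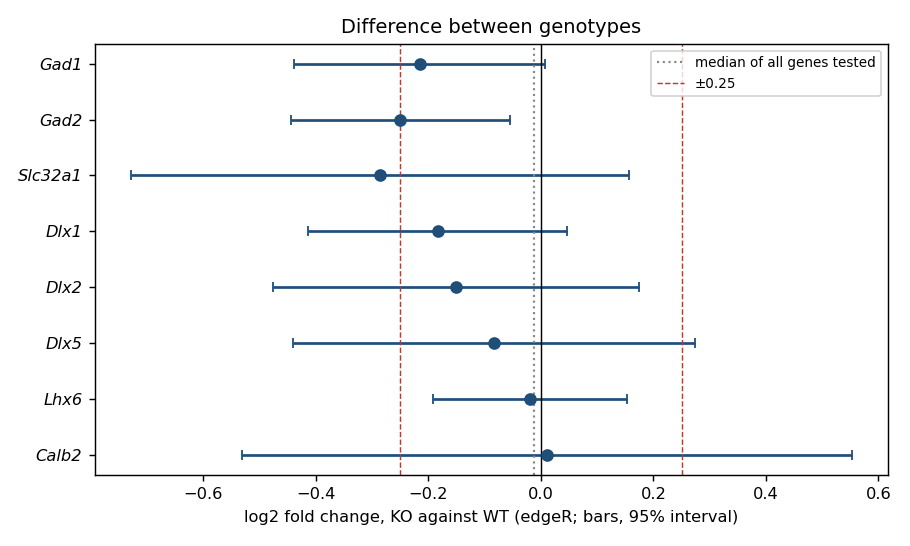
Log2 fold change of KO over WT (horizontal axis) for each interneuron gene, as the edgeR estimate (points) with its 95% interval (bars). Of the 8 intervals, that of Gad2 is the one that leaves out 0, and the estimates run from -0.29 for Slc32a1 to 0.010 for Calb2.

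Taken by count, 0 of the 8 members passed an adjusted p of 0.05 by edgeR, beside 9 of 12699 genes or 0.0709% of all tested, and 0 passed it by DESeq2, beside 70 of 12699 genes by that tool. At the thresholds of the study, an absolute log2 fold change over 0.25 with an unadjusted p under 0.05, the count was 0 of 8 against 4.25% of all genes. At an unadjusted p under 0.05 alone, 1 of 8, Gad2, was called by edgeR and 1 by DESeq2, against 7.69% of all genes by edgeR. No member had genotypes that did not overlap, against 4.49% of all genes. The fitted direction was lower in KO for 7 of 8 members, with a median log2 fold change of -0.17, while 54.4% of all genes were lower with a median of -0.012.

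The counts rested in part on 1 library. Without WT replicate 2, 4 members passed the thresholds of the study, Gad1 at a log2 fold change of -0.28, Gad2 at -0.29, Slc32a1 at -0.45 and Dlx1 at -0.27, against 0 with it, beside 625 of 12676 genes in the same fit. The median over the members was then -0.27, and over all genes -0.012. Gad2 alone passed without KO replicate 2 (-0.29, beside 693 of 12943 genes) or KO replicate 3 (-0.28, beside 470 of 12677), and Gad1 alone without WT replicate 1 (-0.25, beside 497 of 12650). Without WT replicate 4 the median was -0.11 and no member passed. Under none of the 8 fits did a member reach an adjusted p of 0.05.

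**Figure D3:**
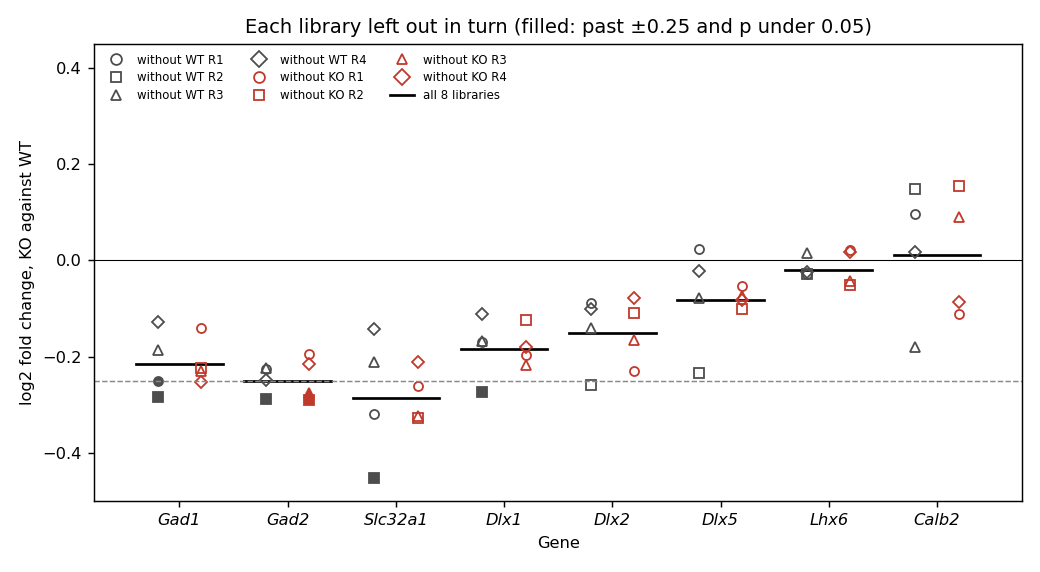
Log2 fold change of KO over WT (axis in log2 units) for each interneuron gene with all libraries and with each of the 8 libraries left out in turn. The Gad1, Slc32a1 and Dlx1 values reach furthest below 0 without WT replicate 2, at -0.28, -0.45 and -0.27, and come nearest to 0 without WT replicate 4, at -0.13, -0.14 and -0.11.

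The members were then compared across libraries, as log2 deviations from the mean of each gene over all 8. In WT replicates 1, 3 and 4, 7 of the 8 members lay above their means, with median deviations of 0.17, 0.12 and 0.22, whereas WT replicate 2 had 2 members above and a median of -0.14. The KO libraries ran from -0.11 in replicates 1 and 4 to 0.0029 in replicate 2. By these medians WT replicate 2 was lower than any of the 4 KO libraries, and the spread among WT libraries was wider than that among KO libraries. Exceptions within a library were large for some genes. Calb2 deviated by -0.80 in WT replicate 3, where Lhx6 and most others were above theirs, and by 0.42 in KO replicate 1, while Slc32a1 deviated by 0.54 in WT replicate 4 and Dlx5 by -0.47 in WT replicate 2.

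**Figure D4:**
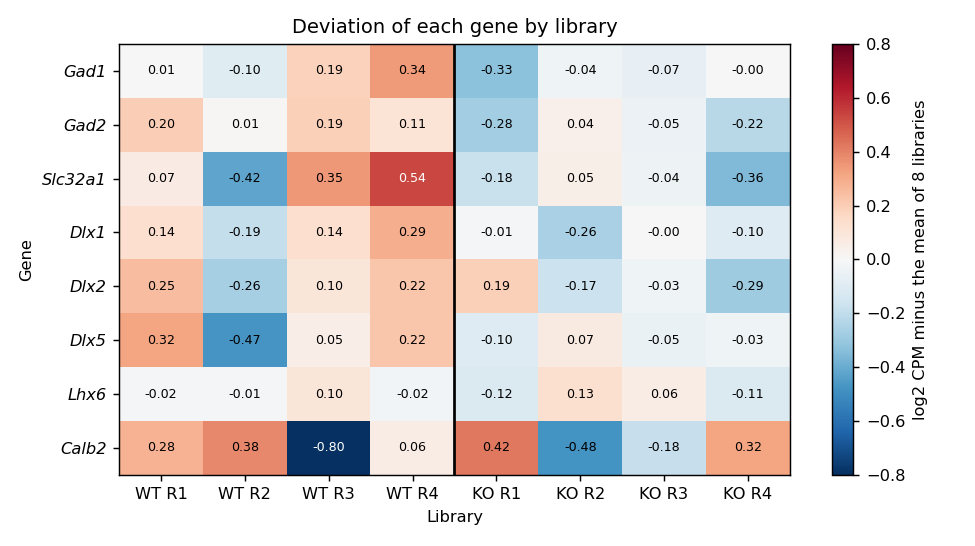
Log2 deviation of each interneuron gene from its own mean over the 8 libraries, by library, from lower to higher than the mean. WT replicates 1, 3 and 4 lie above the mean for 7 of 8 genes each, WT replicate 2 for 2 of 8.

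Within genotypes, the Dlx genes and Slc32a1 followed the mean of the other members, mostly through the WT libraries, and Lhx6 and Calb2 did not. Over the 8 libraries, the mean of the members, centred within genotype, ran from -0.20 in WT replicate 2 to 0.15 in WT replicate 4. Among the KO libraries it ran only from -0.030 to 0.023. In KO replicate 2, Dlx1 deviated by -0.26 from its mean over all libraries and Dlx5 by 0.070. The correlation of each gene with the mean of the other members, after centring within genotype, was 0.80 for Dlx1, 0.80 for Dlx5, 0.69 for Dlx2, 0.56 for Slc32a1, 0.35 for Gad1, 0.18 for Gad2, -0.17 for Lhx6 and -0.52 for Calb2, and is given as a description of libraries that share tissue, dissection and depth. The 9866 genes with at least 100 counts per library on average, among them the members other than Slc32a1, were then ranked by their correlation with the mean of the members. The top 10 outside the list were Pcx, which encodes pyruvate carboxylase, at r of 0.97, followed by Pigt and Slc1a4 at 0.95, March9 and Shisa6 at 0.94, Daam2, Epn1, Galntl4 and Lrfn2 at 0.93 and Sbf1 at 0.92. They are the extremes of that ranking, against a mean that varied mostly through WT replicates 2 and 4, and shared regulation was not tested. Of these 10, 4 had fitted values higher in KO and 6 lower, from -0.45 for Shisa6 to 0.40 for Lrfn2 in log2, values that came to -0.11 for Shisa6 without WT replicate 4 and 0.21 for Lrfn2 without WT replicate 2.

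Proportions among the members were tested as log2 ratios within each library, which do not depend on how the libraries were scaled. The 4 ratios chosen were Gad1 to Gad2, Slc32a1 to Gad1, Lhx6 to Dlx1 and Calb2 to Dlx1. Gad1 exceeded Gad2 by 1.28 ± 0.13 in KO and 1.25 ± 0.18 in WT, and the ratio of Slc32a1 to Gad1 was -3.54 ± 0.22 in KO and -3.50 ± 0.24 in WT. Lhx6 to Dlx1 was 0.11 ± 0.21 in KO and -0.059 ± 0.21 in WT, a difference of 0.16, and Calb2 to Dlx1 was -0.096 ± 0.36 and -0.32 ± 0.64. Exact two-sided permutation tests over the 70 assignments of 4 and 4 libraries, whose smallest possible p is 0.0286, gave p from 0.314 for Lhx6 to Dlx1 up to 0.743 for Gad1 to Gad2, and 0.743 for each after Benjamini-Hochberg adjustment over the 4 (n = 4 per genotype).

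Per unit of exon length, Calb2 had the highest WT level of the 8, at 14.7 ± 4.62 CPM (counts scaled by library size) per kilobase of exon, and Slc32a1 the lowest, at 2.30 ± 0.622 (SD, n = 4). Gad1 followed Calb2 at 9.35 ± 1.28. Lhx6 at 6.18 ± 0.252, Dlx5 at 6.10 ± 1.36, Dlx1 at 5.69 ± 0.762 and Gad2 at 5.10 ± 0.304 formed a group in which neighbours overlapped between libraries, and Dlx2 stood at 3.40 ± 0.52. Neighbours in this order did not overlap in WT at 2 places only, Gad1 above Lhx6 and Gad2 above Dlx2. The KO libraries gave 14.9 ± 4.2 for Calb2, 8.01 ± 0.785 for Gad1 and 1.86 ± 0.223 for Slc32a1.

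Other transcription factors of the ventral and interneuron lineage were set beside the members. Of 19 listed, 13 could be tested, 3 with fitted values higher and 10 lower in KO, with a median log2 fold change of -0.10. The thresholds of the study were passed by 3, of which 2 were higher and 1 lower in KO, and none passed an adjusted p of 0.05. Zeb2, which directs interneurons to the cortex rather than the striatum and is also expressed in cortical excitatory neurons, measured 6289 ± 450.2 normalized counts in KO and 4800.2 ± 1056 in WT, 0.39 in log2 with an edgeR adjusted p of 0.554. Npas1, a factor that limits interneuron numbers, measured 439 ± 27.2 in KO and 362 ± 51.0 in WT. Its log2 fold change was 0.27 with an edgeR adjusted p of 0.611. The value fell to 0.18, short of the study's limit for size, without WT replicate 3, the library where Npas1 was lowest. Without WT replicate 2 it was 0.32. Neither Npas1 nor Zeb2 overlapped between genotypes, which held for 4.49% of all genes. Satb1, which acts in the maturation of interneurons of the medial eminence, was at 2074 ± 86.3 in KO and 2084 ± 262 in WT.

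Among 19 genes of interneuron subtypes, 13 could be tested, 4 with fitted values higher and 9 lower, with a median of -0.084, a direction that turned without WT replicate 4 (9 higher, 4 lower, median 0.027). Npy, a neuropeptide of cortical interneurons that other neurons also express, rose in KO. Its levels were 2398, 2115, 2571 and 2677 normalized counts in KO and 1705, 1339.9, 1178.5 and 1125 in WT, so that every KO library lay above every WT library, and the log2 fold change was 0.87 with a standard error of 0.12 and an edgeR adjusted p of 0.0314. Over the other settings with all libraries the adjusted p ran from 1.22e-08 by DESeq2 to 0.0336. The call was lost without KO replicate 1, 3 or 4 or WT replicate 2 or 3, and with 1 library left out the adjusted p ran from 0.0043 to 0.163 at log2 fold changes of 0.80 to 1.01. Kit, a receptor of a subset of interneurons, was at 1142 ± 93.5 in KO and 1380.2 ± 266 in WT, -0.27 in log2 with an adjusted p of 0.645, and without WT replicate 4 the value was -0.12. Reln, from Cajal-Retzius cells and interneurons, was at 14416 ± 595 in KO and 13873 ± 1504 in WT.

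The receptors and ligands that guide migrating interneurons gave 12 genes to test, with 6 higher, 6 lower and none past the thresholds of the study, the median being -0.011. Robo1, a guidance receptor, was at 0.13 in log2 (edgeR adjusted p 0.811) and Ntrk2, which encodes the receptor of BDNF, at 0.21 (0.763), while leaving out WT replicate 4 gave 0.057 for Robo1 and leaving out WT replicate 2 gave 0.10 for Ntrk2. For GABA uptake, catabolism and chloride transport, 3 of 9 tested were higher, 6 lower and none past the thresholds, with a median of -0.018. Without WT replicate 4 the direction turned, with 5 higher, 4 lower and a median of 0.020. In that fit 1 of the 9 was past the thresholds, beside 847 of 12887 genes. The neuronal glutamine transporter Slc38a1 was at 0.035 in log2 and did not pass the test.

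Markers of cells that a dissection could add or lose were counted in the same way. Striatal projection neurons share the Dlx and Gad genes with cortical interneurons. Their 15 listed markers had summed levels of 783 to 1199 normalized counts in KO and 680.4 to 1045 in WT. Ppp1r1b and Rgs9 made up most of these sums, with means of 484 and 381 in KO and 351 and 371 in WT. Markers too low to test each had a lower mean in KO, such as Drd2 at 5.47 against 8.79 in WT. The 8 that could be tested were all higher in KO, with a median of 0.14. KO replicate 1 was the highest library for 6 of these 8, and without it 6 were higher and 2 lower, with a median of 0.20. The 1 striatal marker past the thresholds of the study was Rarb, at 33.7 ± 9.37 in KO and 15.9 ± 4.27 in WT (1.02 in log2, edgeR adjusted p 0.44). Rgs9 was at 0.045 and Ppp1r1b at 0.44 in log2 (0.26 without WT replicate 3, 0.70 without WT replicate 2). Genes listed as olfactory bulb and septal interneuron markers were higher in 3 and lower in 5 of 8 tested, with a median of -0.067 and sums of 4979 to 6227 in KO and 4784 to 7022 in WT. Most of these sums came from Meis2, with means of 3539 in KO and 3610 in WT. Pax6 and Eomes of this list also stand among the progenitor markers below, so the sums do not measure those interneurons alone. The part of either list in the levels of the members was not tested.

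Cortical glutamatergic markers gave 6 higher and 4 lower of 10, with 2 of each past the thresholds of the study and a median of 0.091. Cux1, a factor of upper-layer neurons, was at 0.28 in log2 with an edgeR adjusted p of 0.467. Bcl11b, a deep-layer factor also expressed in interneurons, was at 412 ± 25 in KO and 507 ± 19.8 in WT (-0.30, adjusted p 0.345), and Fezf2, a factor of subcerebral neurons, at 868 ± 84.2 and 1112 ± 149.6 (-0.36, adjusted p 0.44). Neurod6, a factor of postmitotic excitatory neurons, was at 0.27 in log2 with an adjusted p of 0.714, and at 0.15 without WT replicate 4 or 0.41 without WT replicate 2. Cajal-Retzius markers, the other source of Calb2, were higher in 4 and lower in 2 of 6, with a median of 0.022, and progenitor markers were higher in 1 and lower in 8 of 9, with a median of -0.11.

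The remaining marker lists were summarised as a whole. Meningeal fibroblast markers were higher in 7 of 7, all past the thresholds of the study, with KO replicate 1 the highest library for each of the 7. In the fit without KO replicate 1, 2 of the 7 were still past these thresholds, beside 456 of 12899 genes. Endothelial markers were higher in 8 of 9 with a median of 0.24, microglia markers in 7 of 7 with a median of 0.15, oligodendrocyte precursor markers in 5 of 5 with a median of 0.04, and thalamic markers in 4 of 6 with a median of 0.076. KO replicate 1 was the highest library for 8 of the 9 endothelial, 6 of the 7 microglia and 4 of the 6 thalamic markers. Without that library the number higher was 6 of 9 for endothelial markers (median 0.08), 4 of 7 for microglia markers (0.016), 2 of 5 for oligodendrocyte precursor markers (-0.0019), 3 of 6 for thalamic markers (-0.01) and 6 of 7 for meningeal markers (0.36). Red blood cell genes summed to 237 to 3780 normalized counts in KO and 296 to 547 in WT, with 2 tested, and none of the 6 choroid plexus markers could be tested. The part of these lists in the levels of the interneuron genes was not tested.

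**Figure D5:**
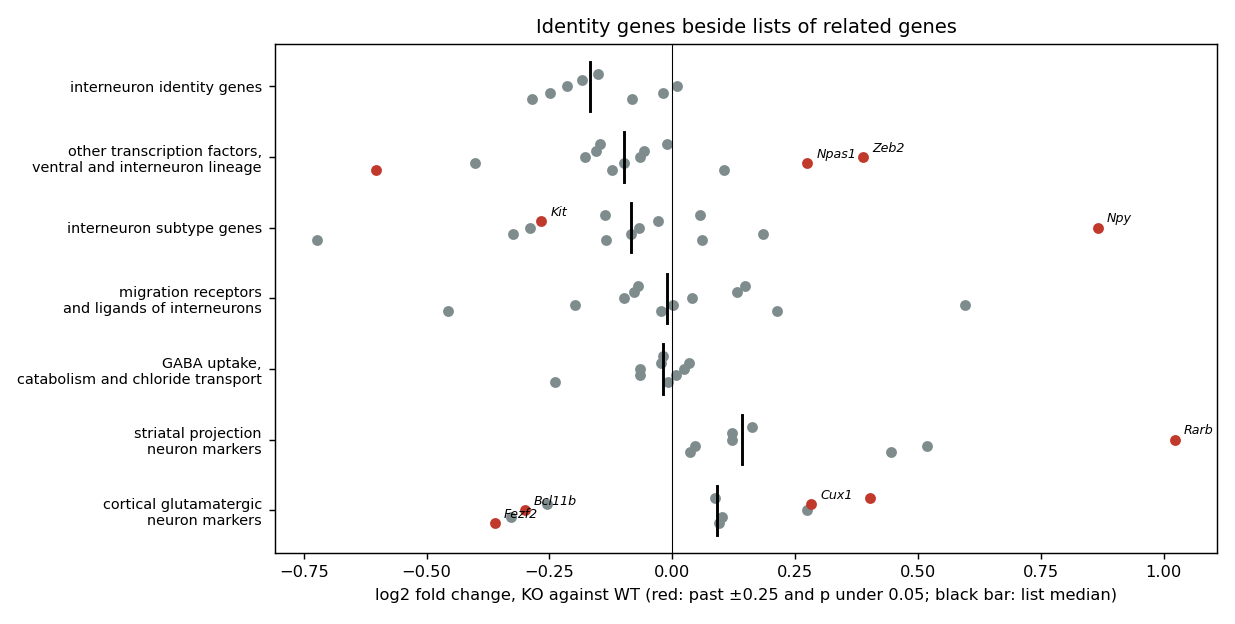
Log2 fold change of KO over WT (axis in log2 units) for the members and for each tested gene of the related and marker lists, 1 point a gene, with the median of each list. The members have a median of -0.17, the interneuron transcription factors -0.10, the migration genes -0.011 and the striatal markers 0.14.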

How the data were processed

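RNA was taken from E18.5 mouse cortex (4 KO and 4 WT embryos) and sequenced as paired poly-A libraries from a stranded kit. Per the study's methods and the labels, trimming by the authors used cutadapt 1.13 and Prinseq (Phred quality 20, reads under 25 bases removed). Mapping to mm9 used TopHat2 2.0.13, followed by SAMtools 0.1.19, and HTSeq-count gave the counts. The deposited values are whole-number counts per gene symbol, with no normalization. The annotation and the strand setting of the counting are not given in the sources used here. Of the 21165 rows, 140 share a symbol with another row.

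All genes were fitted together with edgeR 4.0.16 in R 4.3.3 (TMM normalization, filterByExpr, quasi-likelihood F-test, genotype the only term), which kept 12699 genes holding 99.93% of the counts, and Benjamini-Hochberg adjustment ran over all of them. The step was tested on simulated data. Log2 ratios between members used a prior count of 0.5 and exact permutation tests. Levels per length divide by the exon union of the NCBIM37 annotation. As alternatives, DESeq2 1.42.0, its size factors, upper-quartile normalization, no filter, a minimum of 10 counts in every library, and each library left out were used.

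Genes named are the members, then the 2 most abundant genes of each companion list and those past the study's thresholds, and the 10 genes nearest to the members' mean. Striatal and glutamatergic markers follow the same rule, and the other marker lists are given as a whole. Some genes that the rule names are not reported here. Members and lists were chosen with earlier results of these data known. Libraries of 1 genotype differed by at least 5.38 in chi-square over degrees of freedom, so no library repeats another. The labels give separate embryos. Counting error alone was 2.44% to 12.5% of a member's value in a library, least for Gad1 and most for Slc32a1.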

Additional observations from a re-analysis of the deposited data

Results flagged for a closer look

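Over the members and the other genes named by rule, 78 groups of 4 libraries were examined, and 3 held a library whose distance from its nearest neighbour, as a part of the range, passed Dixon's 95% limit, where chance gives about 3.9. Lhx6 measured 513.9 normalized counts in WT replicate 3, while the other WT libraries lay between 472.9 and 475.8. Npas1 measured 286.7 in WT replicate 3, against 379.2 to 397 in the others. Pigt measured 1400.3 in KO replicate 2, against 1469.8 to 1478.5.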

How the results depend on the processing

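No paired analysis was possible because libraries are named by genotype and replicate alone, with neither litter nor embryo. Under DESeq2, its size factors, upper-quartile normalization, no filter and a minimum of 10 counts, all 8 members kept the direction of the fitted value, none passed the study's thresholds and the median stayed at -0.16. Of the other named genes, Satb1 turned under upper-quartile normalization (0.000278). In fits that each omitted 1 library, the members past the study's thresholds ran from 0 to 4 and the direction turned for 3 members, in log2 ranges of -0.23 to 0.023 for Dlx5, -0.052 to 0.021 for Lhx6 and -0.18 to 0.15 for Calb2. It also turned for Daam2 (-0.011 to 0.21), Epn1 (-0.033 to 0.048), March9 (-0.089 to 0.043), Pigt (-0.046 to 0.087), Reln (-0.015 to 0.10), Rgs9 (-0.023 to 0.15), Satb1 (-0.066 to 0.056), Sbf1 (-0.039 to 0.013) and Slc38a1 (-0.057 to 0.083), and for the ratios Calb2 to Dlx1 (-0.051 to 0.45), Gad1 to Gad2 (-0.031 to 0.12) and Slc32a1 to Gad1 (-0.16 to 0.064). None of these values was past its test, and the cause was not tested. With 4 libraries a genotype, the intervals of all members measured except Gad2 cover changes in both directions.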

Other observations

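Several interneuron subtype genes peaked in 1 WT library. Of the 13 tested, 8 had their highest level of the 8 libraries in WT replicate 4, and of all 19 listed, 11 did. The same held for 6 of the 9 tested genes of GABA uptake, catabolism and chloride transport. WT replicate 4 had the fewest total counts of the 8 libraries, 9643711. The share of all genes that peak in it was not counted, so these numbers have no background to be judged against. The members did not single out that library, since WT replicates 1 and 4 each held the highest level of 3 of the 8. Sst, the somatostatin gene of interneurons of the medial eminence, was at 355 normalized counts there and at 129 to 229 in the other WT libraries, against 187 to 222 in KO. Calb1, calbindin, was at 358 there against 102 to 160.3 in the other WT libraries and 91.0 to 137 in KO. Vip and Tac1, peptide genes of later-maturing subtypes, reached 28.7 and 25.3 in that library and stayed at 11.4 or below in the other 7. These genes were picked after their values were seen, and the embryo behind that library differs from the others in ways that were not tested.

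Pvalb, the parvalbumin gene, had 1.28 normalized counts in KO replicate 1 and 0 in the other 7 libraries, so it could not be tested. Lhx8 and Nkx2-1, factors of the medial ganglionic eminence itself, did not exceed 0.675 and 2.56 normalized counts in any library.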
